A study of Mus musculus with 6 samples.

Results

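Liver RNA of mice fed the hexane fraction of Boswellia serrata was compared with that of mice fed the methanol fraction. Boswellia serrata is the tree that gives Indian frankincense, a gum resin used in herbal medicine. The comparison takes the 2 arrays labelled fraction 1 (hexane) and the 2 labelled fraction 2 (methanol), chosen by their labels, out of 6 arrays in the whole series. Every array holds total RNA from the liver of Swiss-Webster mice, an outbred stock, on an Affymetrix MOE430A chip, which reads each transcript with 1 or more sets of short probes (probe sets). The mice ate a diet with 1% of either fraction over 21 days. The 2 remaining arrays, labelled as control, served only to show on which side of the untreated level each fraction lay. The sources used here state neither the sex and age of the mice nor whether an array holds 1 animal or a pool. The p-values therefore measure only the spread between these arrays, which may be technical.

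Both fractions are mixtures of plant compounds separated by solvent polarity: hexane takes up the oily, non-polar part of a resin and methanol the more polar part. The liver meets such compounds with a set of inducible enzymes. The nuclear receptors CAR and PXR sense foreign and fat-soluble molecules and switch on cytochromes P450, transferases and transporters, while PPAR-alpha switches on fat burning. Mouse liver also carries a strong sex pattern, in which the pulses of growth hormone in males act through the transcription factor STAT5 on a set of male-biased genes. Fasting, low insulin and glucocorticoids act on a further set, of which Igfbp1, Fkbp5 and Ddit4 are well-known members.

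The arrays were alike in overall signal, with medians of 139 to 167 array units over all 6 and 139 to 153 over the 4 arrays of the fractions. Replicates of 1 fraction differed by a median of 0.20 (hexane) and 0.23 (methanol) on the log2 scale, and the 2 fractions' means by 0.23. Correlations on the log2 scale were 0.972 within hexane, 0.974 within methanol and 0.961 to 0.972 between the fractions. The 2 controls correlated at 0.9547, and control 1 with methanol a at 0.9755, the highest of all pairs. RNA quality, read as the actin probes' 3' over 5' signal, gave ratios of 2.13 to 2.64 on the arrays of the fractions and 3.87 on control 2. By the scan day in the files' headers, scan batch 2 held methanol a and control 1, and batch 1 the other 4 arrays. Chip lot 3 held hexane b and methanol b, while hexane a and methanol a came from lots 1 and 2. Control 2 shared lot 1 with hexane a, and control 1 shared lot 2 with methanol a. The part of batch and lot in where the controls lay was not tested. The defining hepatocyte markers were bright: Alb, for serum albumin, read 22132 and 20635 array units on the hexane arrays and 19052 and 18755 on the methanol arrays. Markers of pancreas acinar cells, which make digestive enzymes, were bright as well on every array. Their summed signal over 13 tested genes of 19 listed was 20255 and 65563 on the hexane arrays, 57777 and 32100 on the methanol arrays and 40513 and 26373 on the controls, so it was lowest on hexane a, highest on hexane b, and did not separate the fractions.

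Of 14755 probe sets bright enough to be tested, 2 passed an adjusted p of 0.05 between the fractions, which is 0.0136% (limma, Benjamini-Hochberg). Neither can be named here, because the annotation gave 2 symbols for 1 of them and did not list the other. Probe set 1423556_at read 2277 and 2763 array units on the hexane arrays, 484 and 540.0 on the methanol arrays and 116 and 168 on the controls. The 3 groups did not overlap, with hexane highest and control lowest. It rose by 2.26 ± 0.23 (SE) on the log2 scale with hexane over methanol (adjusted p = 0.0445), a 4.79-fold difference. Probe set 1415896_x_at read 276 and 266 on the hexane arrays, 1393 and 1167 on the methanol arrays and 1656 and 1213 on the controls. Both hexane arrays lay below all 4 others, and the methanol arrays overlapped the controls. It fell by 2.17 ± 0.21 with hexane relative to methanol (adjusted p = 0.0445), a 4.50-fold difference. The suffix of its name marks probes that can match several related transcripts.

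**Figure D1:**
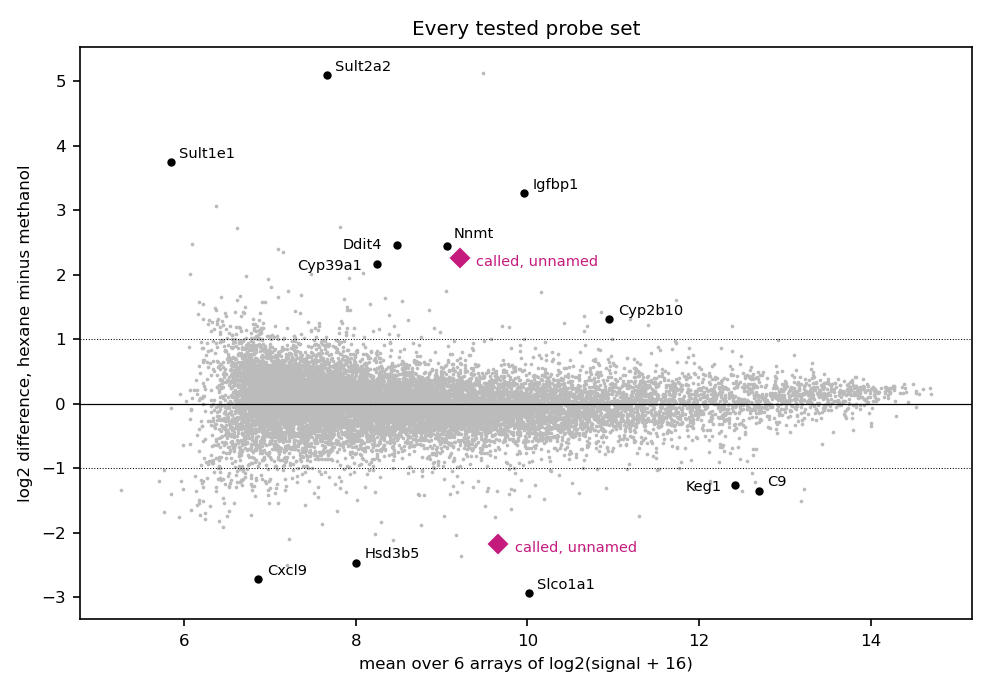
Difference between the fractions for every tested probe set. Each grey dot is 1 of 14755 probe sets, with its mean log2 level over 6 arrays on the horizontal axis and its log2 difference, hexane minus methanol, on the vertical axis; dotted lines mark 2-fold and diamonds the 2 probe sets past an adjusted p of 0.05. Black dots label genes named in the text, from Sult2a2 at 5.10 to Slco1a1 at -2.94, none of which passed.

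None of the 9209 genes with a single symbol passed (0%, limma); the smallest adjusted p was 0.121. Of all tested probe sets, 1187 (8.04%) had an unadjusted p under 0.05. At an unadjusted p under 0.05 there were 733 genes, or 7.96%, of which 348 were higher (3.78%) and 385 lower (4.18%) with hexane. In 25.9% of genes both hexane arrays lay above both methanol arrays, and in 21.9% both lay below, together 47.9%; 52.8% of genes had a difference above 0. With a difference of at least 2-fold besides, these shares were 1.03% (95 genes) and 0.999% (92 genes). All values below are therefore differences that did not pass the threshold, given with their standard errors. The number of called probe sets depended on single arrays: it was 11 without hexane a, none of them among the 2, it was 0 without hexane b, methanol a or methanol b, and it was 3 without control 1. The 2 were called in 9 of 20 alternatives each.

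Genes whose expression is known to be higher in the liver of male mice were lower with the hexane fraction. Of 20 tested members of 25 listed, 16 lay below 0, 15 had both hexane arrays below both methanol arrays (background 21.9%) and 2 had both above. The median difference was -0.91, against 0.02 over all genes tested, and 13 members were lower at an unadjusted p under 0.05 (background 4.18%), 1 higher (3.78%). Keg1, an enzyme of the glycine N-acyltransferase family, had the smallest p of all named genes. It read 3288 and 2635 array units on the hexane arrays, 6838 and 7292 on the methanol arrays and 7690.2 and 8064 on the controls. The hexane arrays were the 2 lowest of the 6 and the methanol arrays lay just under the controls. The difference was -1.26 ± 0.15 (SE) on the log2 scale (adjusted p = 0.121 with limma).

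The promoter of Keg1 is printed because it holds the letters of the STAT5 motif searched, TTCNNNGAA (a palindrome, so both strands read alike). It covers the 250 bases before the RefSeq start site, chr19:12695540-12695789 of GRCm38.p6 on the plus strand, with matches in capitals at 173 and 107 bases before the start.
Keg1: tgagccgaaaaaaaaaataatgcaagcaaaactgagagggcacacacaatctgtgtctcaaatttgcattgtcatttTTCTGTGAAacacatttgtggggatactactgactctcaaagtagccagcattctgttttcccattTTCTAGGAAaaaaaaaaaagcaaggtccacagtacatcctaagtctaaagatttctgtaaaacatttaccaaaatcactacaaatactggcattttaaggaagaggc
Of 32851 RefSeq mouse promoters of that length 7.02% hold a match, and of the 17 tested male-biased genes with a known promoter, 3 do: Bcl6, C8a and Keg1. A match is a run of letters in this window and was not tested as a binding site. The motifs named here were chosen with the expression results known.

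Slco1a1, which takes up organic anions such as bile acids and drugs, read 398 and 107 array units with hexane, 1994 and 1469 with methanol and 2815 and 2903 on the controls. The groups did not overlap, and hexane b was the lowest array. The difference was -2.94 ± 0.47 (adjusted p = 0.192), the largest below 0 of all genes tested. Hsd3b5, a steroid-metabolizing enzyme of male liver, read 8.2 and 8.3 with hexane, 182 and 74.4 with methanol and 4685 and 5754 on the controls. Both fractions were far below the controls, and hexane lay below methanol. With the hexane signals under the constant of 16 added before the log, its -2.46 ± 0.35 (adjusted p = 0.17) moves with that constant: other settings gave values between -3.67 and -1.22. Serpina12, or vaspin, an adipokine of the serpin family, read 377 and 408, 1158 and 792 and 3099.8 and 3410.4 in the same order of groups, a stepwise pattern with no overlap. Its difference was -1.25 ± 0.22 (adjusted p = 0.2).

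Cyp4a12a, a fatty acid hydroxylase of male liver and kidney, read 1835 and 724 with hexane against 4538 and 3373 with methanol, and the controls stood at 3831 and 3214. Hexane b was the lowest array, both hexane arrays were below the other 4, and methanol overlapped the controls. The difference was -1.75 ± 0.37 (adjusted p = 0.275), and -1.09 without hexane b. Hsd3b2, another 3-beta-hydroxysteroid dehydrogenase whose probes may also read close relatives, stood at 251 and 93.7 against 564 and 843, below 1238 and 1932 on the controls, and differed by -2.04 ± 0.42 (adjusted p = 0.238). Ghr, the growth hormone receptor, read 3751 and 2957 with hexane, 5599 and 5741 with methanol and 8096 and 7199.6 on the controls, in that order without overlap. It differed by -0.77 ± 0.16 (adjusted p = 0.244). Over the 20 tested members of the growth hormone, STAT5 and IGF1 list the median was -0.002, with 10 above 0.

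Female-biased liver genes lay on the other side, with less support. Of 14 tested members of 26 listed, 11 lay above 0 with a median of 0.35, and 6 had both hexane arrays above both methanol arrays (background 25.9%). In 1 member both lay below (21.9%), and the lowest member stood at -1.18. With scan batch as a block the median was 0.08, within batch 1 it was 0.30 with 8 above 0, and without methanol b it was 0.55. Cux2, a repressor of male-biased genes in female liver, read 304 and 297 array units with hexane, 56.3 and 15.7 with methanol and 148 and 7.7 on the controls. The hexane arrays agreed closely and were the 2 highest, while the controls spanned the methanol values. It differed by 2.73 ± 0.84 (adjusted p = 0.475). Cyp17a1, the steroid 17-alpha-hydroxylase, stood at 177 and 262 against 21.7 and 82.2, with the controls between at 128 and 123; its difference was 1.93 ± 0.47 (adjusted p = 0.382) and 1.24 within scan batch 1. Fmo2, a flavin monooxygenase, read 281 and 343 against 138 and 167 and 224 and 172 on the controls, a difference of 0.96 ± 0.24 (adjusted p = 0.405). Among sex-linked transcripts, Xist, made from the inactive X of females, read 262 and 268 array units with hexane, 95.6 and 179 with methanol and 132 and 263 on the controls. The Y-linked Eif2s3y read 265 and 266 with hexane, 443 and 313 with methanol and 369 and 170 on the controls. The fractions did not overlap in either, and the controls spanned most of the range. The other tested Y-linked probe sets overlapped between the fractions: Kdm5d read 109 and 106 with hexane and 101 and 127 with methanol, and Uty read 101 and 114 against 113 and 56.9 in one probe set and 127 and 78.1 against 141 and 112 in another. The part of these transcripts in the sex-biased lists was not tested.

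The largest difference of any named gene was that of Sult2a2, a sulfotransferase of bile acids and steroids, singled out after its values were seen. It read 648 and 8135 array units with hexane, 10 and 162 with methanol and 28.3 and 46.7 on the controls. Both hexane arrays were above the other 4, but hexane b was far above hexane a, and the methanol arrays lay as far apart. The difference was 5.10 ± 1.14 on the log2 scale (adjusted p = 0.293), with a 95% interval from 2.49 to 7.70, and 3.29 without hexane b. Sult1e1, which inactivates oestrogens, read 179 and 426 with hexane, 4.1 and 7.6 with methanol and 11.6 and 16 on the controls. Both hexane arrays were above the other 4, which were all near or below the added constant. It differed by 3.75 ± 0.77 (adjusted p = 0.238). Over the 23 tested genes of glucuronidation, sulfation and methylation the median was -0.04, with 9 above 0. An unlisted probe set, 1449525_at, read 3288 and 5620 with hexane, 16.7 and 448 with methanol and 1344 and 331 on the controls. It differed by 5.13 ± 1.08 (adjusted p = 0.263).

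Genes that respond to fasting, low insulin or glucocorticoids were higher with the hexane fraction. Of 23 tested members of 25 listed, 19 lay above 0, 17 had both hexane arrays above both methanol arrays (background 25.9%) and 2 had both below (21.9%). The median was 0.76 against 0.02 over all genes, and 11 members were higher (background 3.78%) and 2 lower (4.18%) at an unadjusted p under 0.05. Igfbp1, a liver-made binding protein of insulin-like growth factors that insulin suppresses, read 3253 and 6814 array units with hexane, 274 and 812 with methanol and 357 and 486 on the controls. The hexane arrays were the 2 highest by a wide margin, and the methanol arrays enclosed the controls. The difference was 3.27 ± 0.49 (adjusted p = 0.192 with limma).

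The promoter of Igfbp1 is printed because it holds AAACAAA, the core searched for forkhead factors such as FOXO1, which act when insulin is low. The window is chr11:7197537-7197786 of GRCm38.p6, plus strand, from RefSeq, with the match in capitals at 106 bases before the start.
Igfbp1: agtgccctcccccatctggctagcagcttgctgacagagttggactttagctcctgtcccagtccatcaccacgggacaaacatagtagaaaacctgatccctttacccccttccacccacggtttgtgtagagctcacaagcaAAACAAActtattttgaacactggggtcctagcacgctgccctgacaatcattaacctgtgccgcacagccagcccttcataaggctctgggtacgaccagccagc
Searched on both strands, this motif is in 8.74% of promoters of that length. It was found in 3 of the 18 tested list genes with a promoter in the table, Dusp1, Igfbp1 and Igfbp2.

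Fkbp5, a co-chaperone of the glucocorticoid receptor and a standard glucocorticoid target, read 1525 and 2512 array units with hexane, 621 and 536 with methanol and 1675 and 944 on the controls. Here the methanol arrays were the 2 lowest, and the hexane arrays overlapped the controls. It differed by 1.74 ± 0.32 (adjusted p = 0.225). Ddit4, an inhibitor of the growth kinase mTOR, read 627 and 2204, 189 and 212 and 142 and 179 in the same order. Hexane b was well above hexane a, and both were above the other 4 arrays, which lay close together. It differed by 2.47 ± 0.48 (adjusted p = 0.229), and by 1.57 without hexane b. Cebpd, a transcription factor of stress and fat-cell formation, stood at 446 and 773 against 156 and 230.2 and 167 and 183 on the controls, a difference of 1.55 ± 0.30 (adjusted p = 0.227). A dimmer probe set of Cebpd stood at 0.58.

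Per1, a clock gene with a glucocorticoid response, read 756 and 776 with hexane and 453 and 438 with methanol, and the controls at 834 and 593 enclosed the hexane arrays. It differed by 0.76 ± 0.21 (adjusted p = 0.43). Pck1, the key enzyme of glucose synthesis, read 6491 and 7342 against 4549 and 4489, with the controls between at 5661 and 6231. The difference was 0.61 ± 0.14 (adjusted p = 0.304), while the 25 genes of glycolysis, glucose synthesis and glycogen had a median of -0.03 with 11 above 0. Mt1, a metallothionein that binds zinc and copper, read 19885 and 11765 with hexane, 7499 and 7971 with methanol and 5210.2 and 2940.0 on the controls, so both fractions lay above the controls and hexane above methanol. It differed by 0.98 ± 0.30 (adjusted p = 0.475), and by 0.61 without hexane a.

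**Figure D2:**
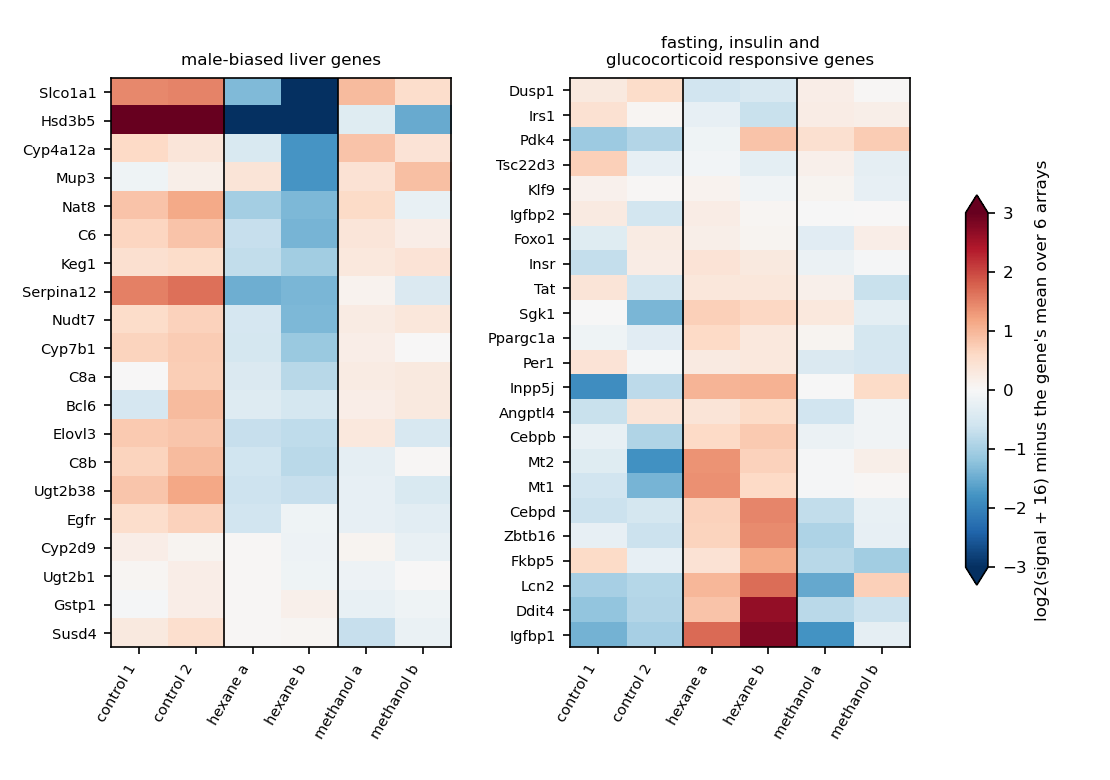
Each row is a tested gene of the male-biased list (left) or of the fasting, insulin and glucocorticoid list (right), sorted by its hexane minus methanol difference, and each column an array; colour gives log2(signal + 16) minus the gene's mean over the 6 arrays, cut at 3 either way. On the left, 15 of 20 genes have both hexane columns below both methanol columns, and on the right 17 of 23 have both above.

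Target enzymes of CAR and PXR were also higher with hexane. Of 20 tested members of 27 listed, 17 lay above 0, 14 had both hexane arrays above both methanol arrays (background 25.9%) and 2 had both below, and the median was 0.30, or 0.17 after quantile normalization. The lowest member stood at -1.18. Cyp2b13, Cyp2b9 and Cyp3a44 of this list also stand in the female-biased list. Cyp2b10, the classical CAR target, read 6083 and 8063 array units with hexane, 2886 and 2713 with methanol and 283 and 509 on the controls. The 3 groups did not overlap, and both fractions were above the controls. Hexane exceeded methanol by 1.32 ± 0.27 on the log2 scale (adjusted p = 0.238 with limma). Cyp2c55, another P450 inducible by foreign compounds, read 9466 and 8471 and 6645 and 6039.9 with the fractions and 217 and 269 on the controls. The 2 fractions were far closer to each other, at 0.50 ± 0.17 (adjusted p = 0.531), than to the controls.

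Alas1, which starts haem synthesis and so supplies P450 enzymes, read 10287 and 8205 with hexane, 5029 and 3170.2 with methanol and 5236 and 3231 on the controls. The hexane arrays were the 2 highest, and methanol overlapped the controls. It differed by 1.20 ± 0.28 (adjusted p = 0.324). Alas2, its counterpart in red cell precursors, ran the other way, with 793 and 723 against 2656 and 1502 and 2244 and 2609.9 on the controls, a difference of -1.38 ± 0.26 (adjusted p = 0.225). The other 4 tested erythroid markers lay between -0.06 and 0.31. Cyp2c38 read 5536 and 5415 against 3382 and 3701 and 3259 and 2989.5 on the controls, and differed by 0.63 ± 0.14 (adjusted p = 0.315).

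Several other genes of drug metabolism and transport differed less, and their 95% intervals bound the difference. For Cyp3a11, the standard PXR target, hexane read 18337 and 16945, methanol 15772 and 15548 and the controls 13638 and 18291. The difference was 0.17 ± 0.15, with an interval from -0.16 to 0.51. Gstm3, a glutathione S-transferase, read 18175 and 16059.9 and 15674 and 14697 with the fractions and 5042 and 4182 on the controls; the fractions differed by 0.17 ± 0.14, from -0.14 to 0.48. Slco1a4, an organic anion transporter induced by foreign compounds, read 4519 and 4586 and 3180.3 and 3373, against 1168 and 989 on the controls, and differed by 0.47 ± 0.16, from 0.11 to 0.84. In both of these the fractions were far above the controls and did not overlap each other. Abcb1a, the drug exporter P-glycoprotein, overlapped between the fractions at 421 and 465 and 356 and 475, and its difference of 0.10 ± 0.21 had an interval from -0.39 to 0.59; a second probe set stood at -0.21. Cyp1a2, a target of the aryl hydrocarbon receptor in liver, read 5190.3 and 4365 against 7731 and 5651 and 8118 and 5421 on the controls. Its difference was -0.47 ± 0.23, from -0.99 to 0.05, and -0.25 within scan batch 1. The 19 glutathione S-transferases had a median of 0.13 with 11 above 0, and the 20 other Nrf2 targets one of 0.08 with 12 above 0. Among these, Cbr1, a carbonyl reductase, stood apart at 4845 and 5811 with hexane against 2592 and 2811 with methanol and 3061 and 2267 on the controls. It differed by 0.97 ± 0.19 (adjusted p = 0.227), with methanol overlapping the controls.

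Genes of cholesterol synthesis and uptake were higher with the hexane fraction. Of 19 tested members of 25 listed, 15 lay above 0, 14 had both hexane arrays above both methanol arrays (background 25.9%) and 3 had both below, with a median of 0.47, which was 0.26 without hexane b and 0.29 without methanol b. Sqle, the squalene epoxidase of sterol synthesis, read 1450.3 and 1668 array units with hexane, 729.6 and 621 with methanol and 691 and 550.3 on the controls. The hexane arrays were the 2 highest, and methanol overlapped the controls. The difference was 1.19 ± 0.20 (adjusted p = 0.2). Hmgcs1, which makes HMG-CoA, read 8274 and 9911, 6082 and 6137 and 4529.7 and 4071 in the same order, with no overlap between any groups, and differed by 0.57 ± 0.14 (adjusted p = 0.407). Fdft1 and Lss, which make squalene and cyclise its epoxide, read 2388 and 3306 and 669.6 and 1123 with hexane against 1967 and 1858 and 478 and 537 with methanol. Hexane b was the highest array for both, and the differences were 0.55 ± 0.19 and 0.76 ± 0.27 (adjusted p = 0.531 and 0.536). Without hexane b they were 0.32 and 0.39.

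The promoter of Hmgcs1 is shown for the sterol element searched, TCACNCCAC, to which SREBP factors can bind. The window is chr13:119690101-119690350 of GRCm38.p6, plus strand, from RefSeq, with the match in capitals at 137 bases before the start.
Hmgcs1: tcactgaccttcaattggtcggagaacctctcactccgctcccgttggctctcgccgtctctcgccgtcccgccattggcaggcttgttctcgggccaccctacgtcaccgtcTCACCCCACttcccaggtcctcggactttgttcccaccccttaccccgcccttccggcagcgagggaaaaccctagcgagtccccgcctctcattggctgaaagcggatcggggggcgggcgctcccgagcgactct
This motif, on either strand, is in 1.05% of promoters of that length, and Hmgcs1 alone held it among the 15 tested list genes with a promoter in the table.

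In bile acid synthesis the genes divided. Cyp39a1, which hydroxylates 24-hydroxycholesterol, read 635 and 925 array units with hexane, 127 and 194 with methanol and 228 and 157 on the controls. Both hexane arrays were above all others, and methanol overlapped the controls. It differed by 2.17 ± 0.30 (adjusted p = 0.17). Cyp7b1, the oxysterol hydroxylase, which is also male-biased, read 1596 and 1055, 2655 and 2338 and 3689 and 3955 in the same order of groups, lowest with hexane. Its difference was -0.93 ± 0.21 (adjusted p = 0.322). Cyp7a1, the rate-limiting enzyme, read 2744 and 2507 against 1775 and 1481, while the controls at 2002 and 777 spanned the methanol values. The difference of 0.69 ± 0.37 had a 95% interval from -0.16 to 1.54, and another probe set of the gene stood at -0.18. Over the 20 genes of the list, all tested, the median was -0.13 with 6 above 0, and 0.03 without hexane b.

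Genes of fatty acid oxidation and PPAR-alpha targets centred near 0: of 30 tested members of 40 listed, 22 lay below 0 and 11 had both hexane arrays below both methanol arrays, with a median of -0.05. The share with hexane below was 21.9% over all genes and 30.1% over genes with a mean log2 level of 10 to 12, where this list's median level of 11.47 lies. Ppara itself, the receptor, read 263 and 101 with hexane, 524 and 388 with methanol and 419 and 216 on the controls. Hexane b was the lowest array, and the controls overlapped both fractions. It differed by -1.37 ± 0.44 (adjusted p = 0.498), and by -0.74 without hexane b. Vnn1, a pantetheinase and PPAR-alpha target, read 121 and 165 with hexane, 349.8 and 280.1 with methanol and 142 and 131 on the controls, so that methanol was the group that stood apart. It differed by -1.06 ± 0.26 (adjusted p = 0.37). Cyp4a14, another classical target, overlapped widely at 2299 and 429 and 964 and 1109, and its -0.05 ± 0.69 was within the spread of the hexane arrays and changed sign with the array left out.

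Among genes of fat storage, G0s2, an inhibitor of the lipase that starts fat breakdown, read 380.3 and 334 array units with hexane, 893 and 1372 with methanol and 587 and 1370.1 on the controls. The hexane arrays were the 2 lowest. It differed by -1.59 ± 0.38 (adjusted p = 0.344). Plin2, which coats lipid droplets, read 3683 and 2933 against 6351 and 5979 and 4291 and 6764 on the controls, with hexane again lowest, and differed by -0.90 ± 0.22 (adjusted p = 0.382). Lpin1, a phosphatidate phosphatase and transcriptional coactivator, read 3488 and 4348 with hexane and 1547 and 1549 with methanol, while the controls at 3268 and 1343 lay far apart; it differed by 1.32 ± 0.35 (adjusted p = 0.43). Fasn, the fatty acid synthase, read 4744 and 4309 against 4848 and 5243, a difference of -0.16 ± 0.27 with an interval from -0.77 to 0.46. The 31 tested genes of lipogenesis and storage had a median of -0.02 with 14 above 0. Pltp, which transfers phospholipids between lipoproteins, read 1565 and 1278 with hexane, 2492 and 2697 with methanol and 1366 and 914 on the controls. Methanol was the highest group and hexane overlapped the controls, with a difference of -0.87 ± 0.23 (adjusted p = 0.425).

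Coagulation and complement genes were lower with hexane: 28 of 39 tested members of 45 listed lay below 0, 17 had both hexane arrays below both methanol arrays (background 21.9%) and 3 had both above, with a median of -0.12, or -0.06 without hexane b. The members furthest from 0 were subunits of the membrane attack complex. C9 read 4095 and 2569.8 array units with hexane, 8055 and 8511 with methanol and 8677 and 13463 on the controls, a difference of -1.35 ± 0.26 (adjusted p = 0.225). For C6 the values were 544 and 325, 1143 and 1017 and 1393 and 1603, with a difference of -1.33 ± 0.25 (adjusted p = 0.225). C8a read 4423 and 3386, 7105 and 7314 and 6027 and 10009, and differed by -0.90 ± 0.24 (adjusted p = 0.43). In all 3 both hexane arrays were below all other arrays. C6, C8a and C8b also stand in the male-biased list.

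Acute phase proteins, which the liver secretes in inflammation, differed among themselves, with 21 of 30 tested members of 33 listed above 0 and a median of 0.10. Lcn2, Mt1 and Mt2 of this list also stand in the fasting, insulin and glucocorticoid list. Apcs, or serum amyloid P, read 7084 and 6429 with hexane, 4168 and 3255 with methanol and 5059.5 and 4272 on the controls. The controls lay between the fractions with no overlap, and the difference was 0.87 ± 0.17 (adjusted p = 0.229). Lcn2, a bacteriostatic iron-binding protein, read 1036 and 1687, 168 and 849 and 252 and 275. Both hexane arrays were above the other 4, and methanol a was far below methanol b. It differed by 1.75 ± 0.60 (adjusted p = 0.525) and by 0.63 within scan batch 1. Saa1, serum amyloid A, overlapped at 1029 and 206 with hexane and 759 and 3440.1 with methanol, with the 2 arrays of each fraction several-fold apart, and its -1.76 ± 0.78 was within that spread (adjusted p = 0.617).

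Socs3, which dampens cytokine signalling, read 208 and 196 with hexane, 106 and 37 with methanol and 197 and 213 on the controls, and Il1r1, the interleukin 1 receptor, 376 and 217, 82.2 and 143 and 326 and 274. In both the methanol arrays were the 2 lowest and hexane overlapped the controls. The differences were 1.44 ± 0.39 and 1.28 ± 0.33 (adjusted p = 0.43 and 0.425). That of Socs3 was 0.83 without methanol b. A dimmer probe set of Socs3 stood at 0.25, with 73.5 and 69.6 on the hexane arrays inside the 40.7 and 80.1 of the methanol arrays, and with hexane below the controls. Alox5ap, the partner of 5-lipoxygenase in leukotriene synthesis, read 346 and 327 against 289 and 293; its difference of 0.20 ± 0.23 had an interval from -0.32 to 0.72. The 17 tested genes of prostaglandin and leukotriene synthesis had a median of 0.01 with 9 above 0. Alox5 itself was too dim to be tested.

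Interferon-stimulated genes were lower with hexane: 21 of 27 tested members of 43 listed lay below 0, 13 had both hexane arrays below both methanol arrays (background 21.9%) and 3 had both above, with a median of -0.21. Oas1a, an antiviral synthetase, read 76.5 and 37.2 array units with hexane, 214 and 175 with methanol and 273 and 367 on the controls, in that order without overlap. It differed by -1.58 ± 0.33 (adjusted p = 0.266). Bst2, or tetherin, read 897 and 883 against 1363 and 1269 and 1443 and 1343 on the controls, a difference of -0.56 ± 0.17 (adjusted p = 0.475). Cxcl9, a chemokine induced by interferon gamma, read 39.8 and 17.1 with hexane, 258 and 275 with methanol and 176 and 72.9 on the controls. Hexane was lowest and methanol highest with no overlap, and the difference was -2.72 ± 0.47 (adjusted p = 0.2). Hexane b was near the added constant of 16, and other settings gave values between -3.30 and -1.85. Cxcl9 was not taken from the interferon list but from that of the NF-kB pathway and inflammatory mediators. The 29 tested members of that list had a median of 0.06 with 16 above 0. Il1r1, given above, belongs to it as well.

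Of 18 tested MHC and antigen presentation genes 8 lay above 0, with a median of -0.04. In 6 of them (33.3%) both hexane arrays lay below both methanol arrays. That share was 21.9% over all genes and 26.3% at a mean log2 level of 8 to 10, where this list's median level of 9.17 lies. The members furthest below 0 belong to class II. Cd74, the invariant chain, read 763 and 746 with hexane, 1493 and 1334 with methanol and 1178 and 999 on the controls, a difference of -0.89 ± 0.18 (adjusted p = 0.238). H2-Aa and H2-Ab1, the class II chains, read 396 and 385 and 337 and 284 with hexane against 599 and 814 and 542 and 447 with methanol, and differed by -0.81 ± 0.24 and -0.64 ± 0.21 (adjusted p = 0.469 and 0.516). Further class II genes were nearer 0, with H2-Eb1 at -0.06 and H2-DMa at -0.15.

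Markers of other cell types differed in direction. Of 15 tested stellate cell markers 12 lay below 0 (median -0.16). The summed signal of all 16 on the chip, tested or not, was 11255 and 9411 array units on the hexane arrays. It was 13769 and 12116 on the methanol arrays and 15507 and 14280 on the controls. Of 14 tested endothelial markers 11 lay below 0 (median -0.16), with sums over all 15 on the chip of 8984 and 8539 against 9726 and 10507. Kupffer cell and macrophage markers, 12 of 17 below 0 (median -0.11), summed to 12007 and 12863 against 12778 and 13769, which overlap; their median was 0.04 without hexane a and 0.03 within chip lot 3. T cell markers were all above 0, 5 of 5 (median 0.20, and 0.01 within scan batch 1), but only 1 had fractions that did not overlap. B cell markers were above 0 in 3 of 6 (median -0.02). Over all genes 52.8% lay above 0. The share was 62.0% below a mean log2 level of 8, where the T cell list's median level of 6.8 lies. It was 46.1% from 8 to 10, where those of the stellate (8.93) and endothelial (8.76) lists lie. In bulk RNA, fewer cells of a type and less RNA per cell cannot be told apart, and the part of these markers in the interferon and MHC values was not tested. Clec4f, specific to Kupffer cells, read 647 and 728 with hexane, 1049 and 1016 with methanol and 1035 and 989 on the controls (-0.58 ± 0.18, adjusted p = 0.475). The macrophage receptor Marco ran the other way, at 202 and 185 against 98.4 and 112 and 135 and 137 (0.80 ± 0.26, adjusted p = 0.516). Col3a1, a collagen of stellate cells, read 419.8 and 269 against 565 and 625 (-0.79 ± 0.25, adjusted p = 0.493, and -0.49 without hexane b), and Stab2, a scavenger receptor of liver endothelium, 726 and 581 against 953 and 994 (-0.57 ± 0.19, adjusted p = 0.514). All 8 tested neutrophil markers lay above 0 (median 0.32). The sums over all 11 on the chip were 2759 and 3081 against 1246 and 1979, to which Lcn2, also made by hepatocytes, contributed most with hexane.

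Genes of p53, growth arrest and the integrated stress response had a median of 0.33, with 16 of 22 tested members of 28 listed above 0 and 12 with both hexane arrays above both methanol arrays (background 25.9%). Blocking on scan batch gave a median of 0.21 and blocking on chip lot one of 0.14. Cebpb and Ddit4 also stand in the fasting, insulin and glucocorticoid list, so the lists are not separate. Gadd45b, a growth arrest and stress gene, read 432 and 527 with hexane, 223 and 165 with methanol and 101 and 101 on the controls, in that order without overlap. It differed by 1.25 ± 0.24 (adjusted p = 0.227). Another probe set of the gene stood at 0.23, with the controls overlapping hexane, and one more at 1.99. Asns, the asparagine synthetase that ATF4 induces, read 281 and 503 against 181 and 151 and 173 and 167 on the controls, a difference of 1.11 ± 0.29 (adjusted p = 0.429) and of 0.71 without hexane b. Cebpb, a transcription factor of stress and glucose synthesis, stood at 2749 and 3139 against 1583 and 1681 and 1553 and 955, and differed by 0.84 ± 0.24 (adjusted p = 0.43), although another probe set stood at 0.05. Heat shock chaperones leaned the other way, with 17 of 28 tested members below 0 and a median of -0.13, which was 0.02 with scan batch as a block. Hspa1b, an inducible Hsp70, read 332 and 726 with hexane, 1113 and 1635 with methanol and 2485 and 1018 on the controls, and differed by -1.43 ± 0.46 (adjusted p = 0.504). Hsph1, its exchange factor, read 246 and 440.1 against 571 and 730.3 and 1418 and 957, a difference of -0.94 ± 0.31 (adjusted p = 0.509). Without hexane a the differences of Hspa1b and Hsph1 were -0.88 and -0.54.

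Housekeeping machinery showed small differences shared by many members. Of 43 tested cytosolic ribosomal proteins of 79 listed, 40 lay above 0 and 35 had both hexane arrays above both methanol arrays (background 25.9%, and 54.0% at a mean log2 level of 13 or more), with a median of 0.23. The proteasome had 31 of 40 above 0 (median 0.21) and oxidative phosphorylation 61 of 72 (median 0.16). Rpsa, a protein of the small ribosomal subunit, read 12557 and 12472 array units with hexane, 8884 and 8824 with methanol and 9222 and 10086 on the controls, with the controls between the fractions. It differed by 0.50 ± 0.12 (adjusted p = 0.324). The proteasome subunits Psma6 and Psmb4 read 7740.4 and 8084 and 6175 and 6723 with hexane against 5913 and 5090.2 and 4618 and 4787 with methanol, and differed by 0.53 ± 0.14 and 0.45 ± 0.13 (adjusted p = 0.43 and 0.456). The difference varied with the level of a gene, though not in 1 direction. Of the 239 genes with a mean log2 level of 13 or more, 77.4% lay above 0, with a median of 0.14. The 3440 genes below a level of 8 also leaned up, with 62.0% above 0, a median of 0.125 and 32.3% with hexane above methanol, while the 3653 genes between 8 and 10 had a median of -0.03. Between 10 and 12 the median was -0.04 with 44.0% above 0, and between 12 and 13 it was 0.03 with 55.2%. The median level was 13.33 for the ribosomal list, 12.79 for oxidative phosphorylation and 11.31 for the proteasome, and 7.48 for the female-biased, 7.59 for the neutrophil and 7.52 for the interferon list. After quantile normalization the ribosomal median was 0.11, that of oxidative phosphorylation 0.07 and that of the proteasome 0.20.

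**Figure D3:**
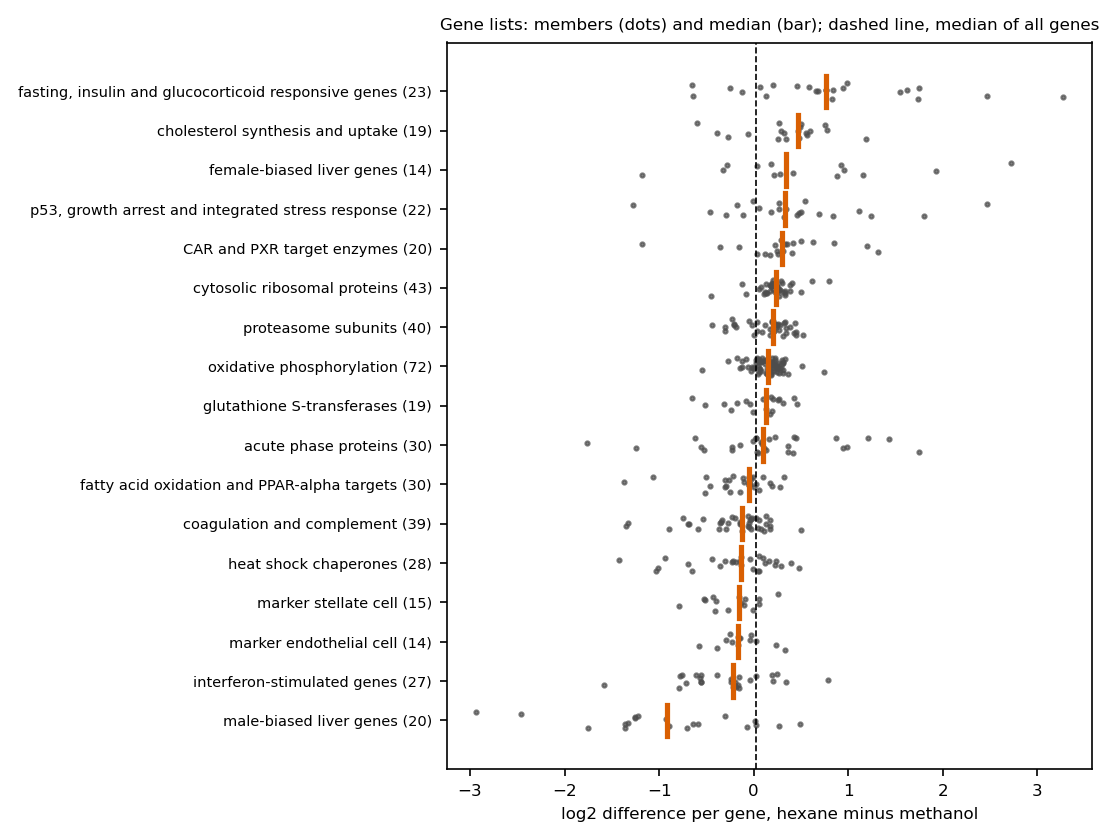
Gene lists between the fractions. Each dot is a tested gene at its log2 difference, hexane minus methanol, the bar is the list's median, the dashed line is the median of all 9209 genes at 0.02, and the number of tested genes stands in brackets. Medians run from 0.76 for the fasting, insulin and glucocorticoid list to -0.91 for the male-biased list.

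Beyond these lists, the rule for named genes brought up genes of varied function. Nnmt, which methylates nicotinamide, read 1127 and 1661 array units with hexane, 167 and 337 with methanol and 511 and 349.9 on the controls. The controls lay between the fractions with no overlap, and the difference was 2.45 ± 0.35 (adjusted p = 0.17). Reg3b and Reg2, secreted lectins best known from pancreas and gut, read 349.8 and 383 and 464 and 664 with hexane, 124 and 123 and 158 and 176 with methanol and 270.3 and 248 and 427 and 225 on the controls. In both, hexane was highest and methanol lowest with no overlap, and the differences were 1.45 ± 0.21 and 1.64 ± 0.31 (adjusted p = 0.17 and 0.225). The pancreas acinar sums given above were lowest on hexane a and highest on hexane b. The part of pancreas RNA in the values of Reg3b and Reg2 was not tested. Ccn2, a matrix protein induced by TGF-beta and YAP, read 769.6 and 721, 335 and 311 and 506 and 349 in the same order of groups, and differed by 1.17 ± 0.22 (adjusted p = 0.225). Setd4, of the SET domain methyltransferase family, read 822 and 699, 318 and 370.3 and 423 and 465, a difference of 1.11 ± 0.20 (adjusted p = 0.225); a dimmer probe set stood at 0.29, with overlap.

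On the lower side, Luzp1, a leucine zipper protein, read 42.8 and 59.3 array units with hexane, 289 and 249.9 with methanol and 171 and 147 on the controls. Hexane was lowest and methanol highest, with a difference of -2.10 ± 0.29 (adjusted p = 0.17). Id2, an inhibitor of helix-loop-helix factors, and Cited2, a coregulator of CBP/p300, showed the same order: 531 and 346 and 343 and 275 with hexane, 1081 and 1165 and 759 and 783 with methanol, 811 and 751 and 738 and 636 on the controls. They differed by -1.36 ± 0.23 and -1.28 ± 0.20 (adjusted p = 0.2 and 0.192). Hexim1, an inhibitor of the elongation factor P-TEFb, read 185 and 213, 596 and 523 and 748 and 498, and Tsc22d1, a leucine zipper transcription factor, 931 and 671, 1935 and 1808 and 1801 and 2321. In both the hexane arrays were the 2 lowest and methanol overlapped the controls, with differences of -1.42 ± 0.24 and -1.23 ± 0.22 (adjusted p = 0.2 and 0.218). A dimmer probe set of Hexim1 stood at -0.45, and dimmer ones of Tsc22d1 at -0.97, -0.89 and -0.44. Cyp2d13, a P450 of the 2d family whose members are much alike, read 338 and 268, 726 and 805 and 1115 and 1191 (-1.30 ± 0.20, adjusted p = 0.192). Ctse, the protease cathepsin E, read 1277 and 894, 2829.5 and 2514 and 2436 and 2540.4 (-1.31 ± 0.20, adjusted p = 0.192); a much dimmer probe set of Ctse stood at 1.10.

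**Figure D4:**
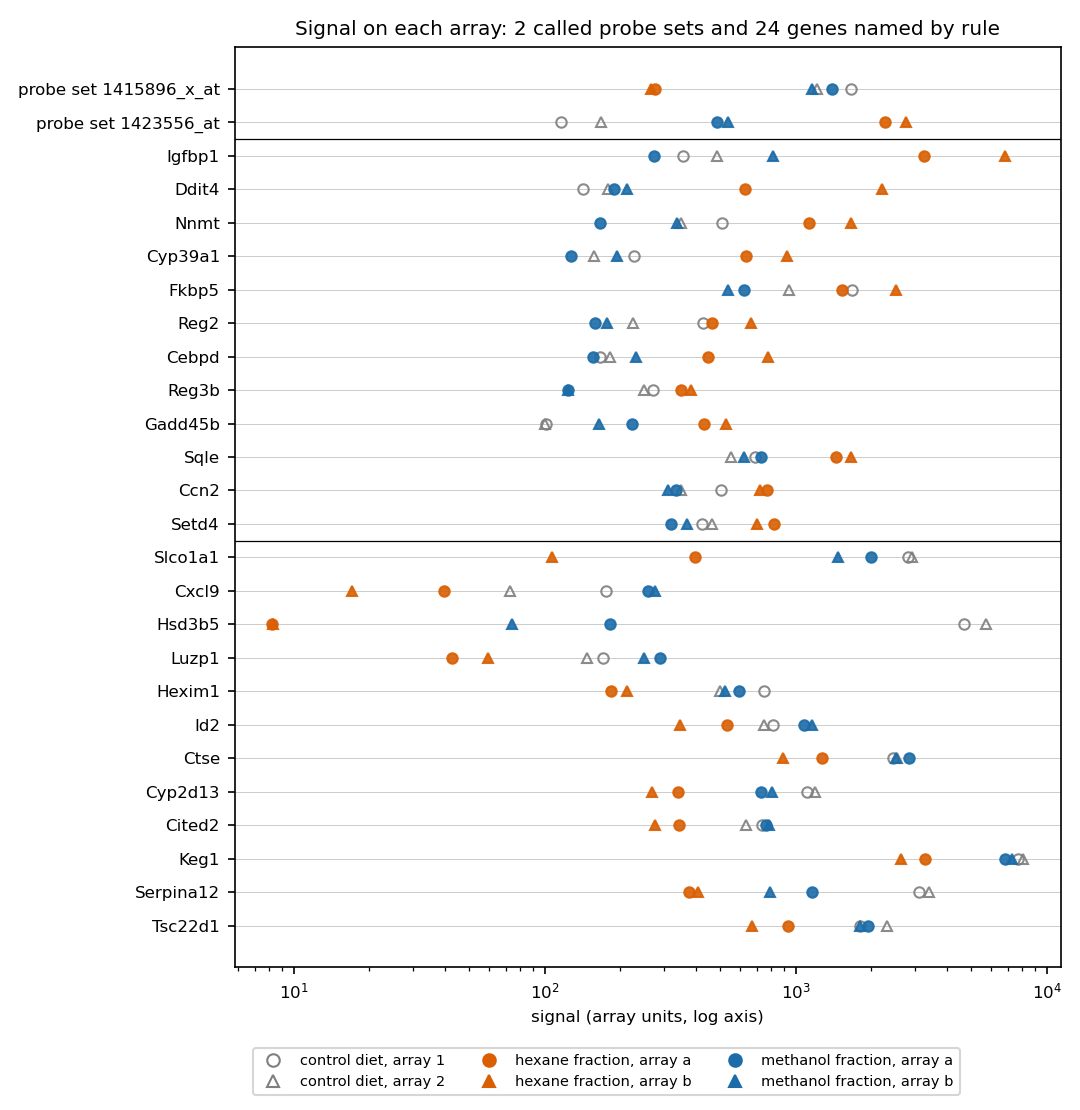
Signal of the 2 called probe sets and of the 24 genes taken by the rule, on each of the 6 arrays (array units, log axis); circles and triangles are the 2 arrays of a group, orange for hexane, blue for methanol and open grey for control. In every row the 2 hexane arrays lie on 1 side of the 2 methanol arrays, which the rule required.

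Since scan batch 2 held no hexane array, the fractions were also compared within batch 1, as hexane a and b against methanol b, and within chip lot 3, as hexane b against methanol b. For the 24 genes taken by the rule the sign is fixed by the rule, which asked for fractions that do not overlap. Their sizes were 0.77 to 1.16 times the difference over the 4 arrays within the batch and 0.74 to 1.33 times within the lot. The 2 called probe sets stood at 2.18 and -2.04 within the batch and at 2.32 and -2.07 within the lot. The median of the male-biased list was -0.88 within the batch and -1.02 within the lot, and that of the fasting, insulin and glucocorticoid list 0.79 and 0.70. For cholesterol synthesis these medians were 0.54 and 0.65, and for CAR and PXR targets 0.31 and 0.25. These values reuse arrays of the full comparison, so they are no separate evidence. No other scaling moved the median of all genes by more than 0.1.

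**Figure D5:**
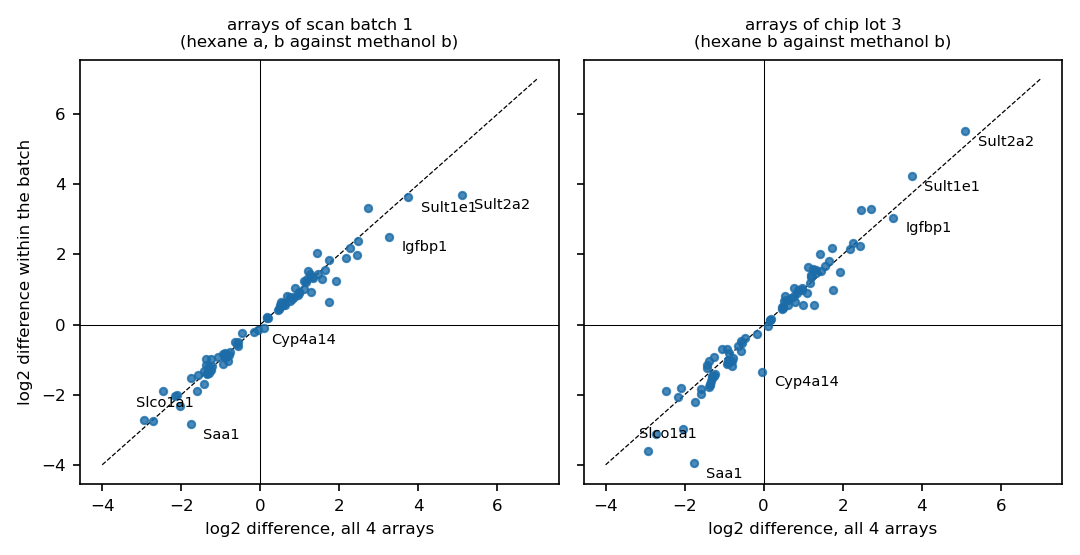
Differences of the genes named in the text within scan batch 1 (left) and chip lot 3 (right), on the vertical axes, against those over all 4 arrays of the fractions, on the horizontal axes, all as log2 hexane minus methanol; the dashed line marks equal values. Most genes lie near the line, while Sult2a2 stands at 3.71 within the batch against 5.10 over 4 arrays and Saa1 at -3.96 within the lot against -1.76.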

How the data were processed

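The values analysed are the authors' deposited intensity per probe set, on a linear scale; the trimmed mean (2% cut at each end) is about equal on every array. The software that made them and its background treatment are not stated in the labels or headers. Scan day and chip lot were read per the file headers. Of 22690 probe sets 64 controls were left out; of the rest, 20380 carried 1 gene symbol in GEO's platform annotation, 691 several and 1555 none. Probe sets at or above their array's 40th percentile on at least 2 of 6 arrays were tested: 14755, standing for 9209 genes, each by its brightest probe set with 1 symbol. log2(signal + 16) was fitted with limma 3.58.1 (R 4.3.3) over the 3 groups of 2 arrays, with a variance trend, 3 residual and 5.43 prior degrees of freedom, and Benjamini-Hochberg adjustment over all tested probe sets; p-values are two-sided. The constant of 16 makes fold changes of dim genes too small. The median standard error was 0.252 on the log2 scale. Precision is limited by how few arrays there are. The code was tested on simulated data.

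Named genes were, in each direction, the 12 with the smallest p among genes with non-overlapping fractions and at least a 2-fold difference, since none passed, plus listed genes and members of the gene lists. The members and lists were chosen with earlier results of these data known. The letters a and b were not taken as pairs, and the a minus b differences correlated at 0.03 between the fractions. Hexane b and methanol b did share a scan batch and a chip lot, so this value cannot show whether the arrays were paired. Alternatives covered scaling, the added constant, the filter, the variance model, batches and each array left out.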

Additional observations from a re-analysis of the deposited data

Results flagged for a closer look

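Among the genes described above, 18 had both hexane arrays on one side of both controls and both methanol arrays on the other, and 2 probe sets passed the test between the fractions. Passing it were probe set 1415896_x_at at -2.17 and probe set 1423556_at at 2.26 (log2, hexane minus methanol; adjusted p = 0.0445 each with limma). The others did not pass. Higher with hexane than control and lower with methanol were Nnmt (2.45), Cyp17a1 (1.93), Reg2 (1.64), Reg3b (1.45), Ccn2 (1.17), Setd4 (1.11), Fmo2 (0.96), Apcs (0.87), Marco (0.80), Pck1 (0.61), Rpsa (0.50), Psmb4 (0.45) and Sult1e1 (3.75). Lower with hexane and higher with methanol were Cxcl9 (-2.72), Luzp1 (-2.10), Id2 (-1.36), Cited2 (-1.28) and Cd74 (-0.89). Many of these 18 genes had been picked for a small p or for fractions that do not overlap. The share of all tested genes with such an order was not counted, so the 18 cannot be set against a background. For Sult1e1 the methanol and control signals were all near or below the added constant, so their order carries little weight.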

How the results depend on the processing

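The count of called probe sets, 2 as reported, was 0 after quantile normalization (1148 at an unadjusted p under 0.05, limma), median centring (1154), a constant of 1 (1179), no filter (1615), without the variance trend (1087), with a block for scan batch (1249) and within scan batch 1 (1329). It was 16 with chip lot as a block, 9 higher and 7 lower. Leaving out 1 array gave 0 to 11. With the replicate letters as a replicate block it was 75 (34 higher, 41 lower), both reported ones included, on 1 residual degree of freedom. The labels do not say whether the letters pair arrays. Of 86 named results, 83 kept their sign under every alternative run. Many of them had fractions that do not overlap. For these, neither leaving out 1 array nor another added constant can reverse the sign, so the count of 83 is no separate evidence. The results that changed sign were small differences. Cyp4a14, at -0.05, was 0.019 after quantile normalization, 0.24 with scan batch as a block, -1.24 without hexane a, 1.14 without hexane b and 0.051 without methanol b. Abcb1a, at 0.10, was -0.009 with scan batch as a block, -0.10 within scan batch 1, which is also without methanol a, and -0.052 as the mean over its probe sets, and up to 0.30 without methanol b. Fasn, at -0.16, was 0.053 with a block for scan batch and 0.12 with one for chip lot. Of 50 lists, 23 kept the sign of their median throughout. The cause was not tested. Dim genes such as Hsd3b5 and Sult1e1, at or below the added constant in a group, have no firm fold.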
